A study of Mus musculus with 10 samples.

Results

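The 34 genes described here are a list of interferon-stimulated and antigen presentation genes, chosen by name with earlier results of these data known: sensors of viral RNA, the transcription factors of the interferon pathway, antiviral effectors, interferon-induced GTPases, chemokines, and genes of peptide presentation. A single-gene value was available for 30 of the 34, out of 19938 genes measured. Isg15, Gbp2 and Igtp were covered only by probe sets shared with other genes and Ifi44 by no probe set with 1 gene symbol, so these 4 were not analysed here. RNA of mouse skeletal muscle had been hybridized to Affymetrix Mouse Gene 1.0 ST arrays, on which a gene is read by 1 or a few probe sets, and the study asked among other questions, how the long non-coding RNA linc-MYH acts on muscle fiber genes.

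All groups were of mice labelled 8 weeks old, of the strain spelled C56BL6N in the labels. The shlinc-MYH group was 2 arrays of tibialis anterior (TA), a fast leg muscle, electroporated with 10 µg of a vector expressing an shRNA against linc-MYH, and the control TA group was 2 arrays of TA electroporated with a control vector. The methods give the control as an shRNA against LacZ put in the TA of the opposite leg, and in both groups fibers with GFP were dissected 2 weeks after electroporation. The KO group was 3 arrays of gastrocnemius from conditional knockout mice, with both alleles of a gene floxed and a Cre recombinase driven by the human skeletal actin promoter, which deletes in muscle fibers and not in the other cells of the muscle, and the control gastrocnemius group was 3 arrays labelled wild type. The gastrocnemius was not electroporated. The treatment protocol gives 8 weeks as the age at electroporation, so the age at sampling in TA may be another. The methods say that muscles from different mice were used for a condition in electroporation experiments, without tying the arrays to mice. The labels say neither that the arrays of a group came from separate animals nor that arrays with the same replicate number share a mouse, so every p-value measures only the spread between these arrays, and for gastrocnemius that spread may be technical.

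Interferons are secreted proteins that cells release on sensing viral or other foreign or misplaced nucleic acid. Type I interferon acts through a complex with Stat2 and Irf9 on the interferon-stimulated response element of genes such as Rsad2 and the Ifit family, whereas interferon gamma, made by T cells and natural killer cells, acts mainly through STAT dimers on genes such as Cxcl9, Irf1 and the immunity-related GTPases. Healthy muscle fibers present little antigen, and both class I antigen presentation and these GTPases are known to be induced in inflamed muscle.

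The promoters show a sequence that many but not all of these genes share. RefSeq promoter windows of GRCm38.p6, 250 bases before to 50 after a transcription start, were at hand for 25 of the 34 genes, with 30 starts. On either strand, 16 of the 30 windows (53.3%) held GAAANNGAAA, the core of the interferon-stimulated response element, against 3.44% of all 32851 windows. The palindrome TTCNNNGAA, which STAT dimers bind, was found in 4 of the 30 windows (13.3%) against 8.3% of all windows. A match is a match of letters and no evidence of a bound factor. The windows below, 60 bases each and 5′ to 3′ along the gene, are those of the 4 genes with an element whose signal spanned the widest range over the TA arrays and of the 2 with a window whose signal spanned the narrowest, and capitals mark the response element core, where neighboring copies overlap.
Irgm1 (chr11:48871410-48871469, minus strand): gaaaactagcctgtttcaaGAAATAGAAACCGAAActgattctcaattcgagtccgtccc
Cxcl10 (chr5:92349068-92349127, minus strand): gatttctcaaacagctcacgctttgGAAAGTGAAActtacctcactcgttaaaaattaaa
Rsad2 (chr12:26456538-26456597, minus strand): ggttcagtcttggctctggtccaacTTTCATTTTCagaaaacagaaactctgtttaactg
Gbp3 (chr3:142559980-142560039, plus strand): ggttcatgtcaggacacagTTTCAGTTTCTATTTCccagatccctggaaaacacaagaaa
Oas1a (chr5:120907505-120907564, minus strand): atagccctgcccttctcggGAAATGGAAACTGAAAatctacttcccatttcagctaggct
Oasl1 (chr5:114923210-114923269, plus strand): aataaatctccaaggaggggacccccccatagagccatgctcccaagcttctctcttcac
In Rsad2 and Gbp3 the core lies on the opposite strand. Irgm1, Gbp3 and Oas1a each carry overlapping copies of the core close to the start, yet they stand at opposite ends of the range over the TA arrays, and Oasl1 has no copy in its window. Counted by gene, the 4 guanylate-binding and immunity-related GTPases with a promoter at hand (Gbp2, Gbp3, Igtp and Irgm1) held the core in at least 1 window, with none in a second window of Gbp3. So did 4 of 7 antiviral effectors, both RNA sensors, and 1 of 2 antigen presentation genes, B2m. The core was also held by 1 of 4 transcription factors, 2 of 4 genes of the group with Isg15 and Xaf1, and 1 of 2 chemokines, Cxcl10 and not Cxcl9. In all, 15 of 25 genes (60%) held it, against 3.99% of all 27025 genes with a window.

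Signals are the deposited log2 values, and a difference of 1 is 2-fold. The median over all genes lay between 5.27 and 5.32 on the 4 TA arrays and between 6.96 and 7.04 on the 6 gastrocnemius arrays, so no level was compared between the tissues. The genes targeted in the shlinc-MYH and KO groups were not analysed here, so the labels could not be checked on the targeted genes. The muscle fiber marker Acta1, skeletal actin, was between 12.63 and 12.71 in TA and between 14.01 and 14.04 in gastrocnemius. Acta1 is 1 of 14 fiber markers listed and does not stand for them all. Of the 14, 10 were lowest of the TA arrays on shlinc-MYH replicate 2, against 25.4% of all genes. In gastrocnemius all KO arrays were below all controls in 10 of the 14, against 9.85% of all genes. In bulk muscle, fewer cells of a type and less RNA per cell cannot be told apart.

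In TA the interferon genes differed far more between the 2 shlinc-MYH arrays than between shlinc-MYH and control. Of the 30 members, 29 were higher on shlinc-MYH replicate 2 than on replicate 1, against 52.9% of all genes, and 12 were at least 2-fold higher, against 0.456% of all genes (91 genes). The median member difference, replicate 2 minus replicate 1, was 0.88, and 0.015 over all genes. Between the 2 control TA arrays the median member difference was -0.14, with 12 of the 30 higher on replicate 2, against 51.7% of all genes, and 3 at least 2-fold higher, against 0.246% of all genes. shlinc-MYH replicate 2 was the highest of the 4 TA arrays for 27 members, against 23.6% of all genes, while replicate 1 of the same group was the lowest for 17, against 28.9% of all genes, and the highest for 0.

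**Figure D1:**
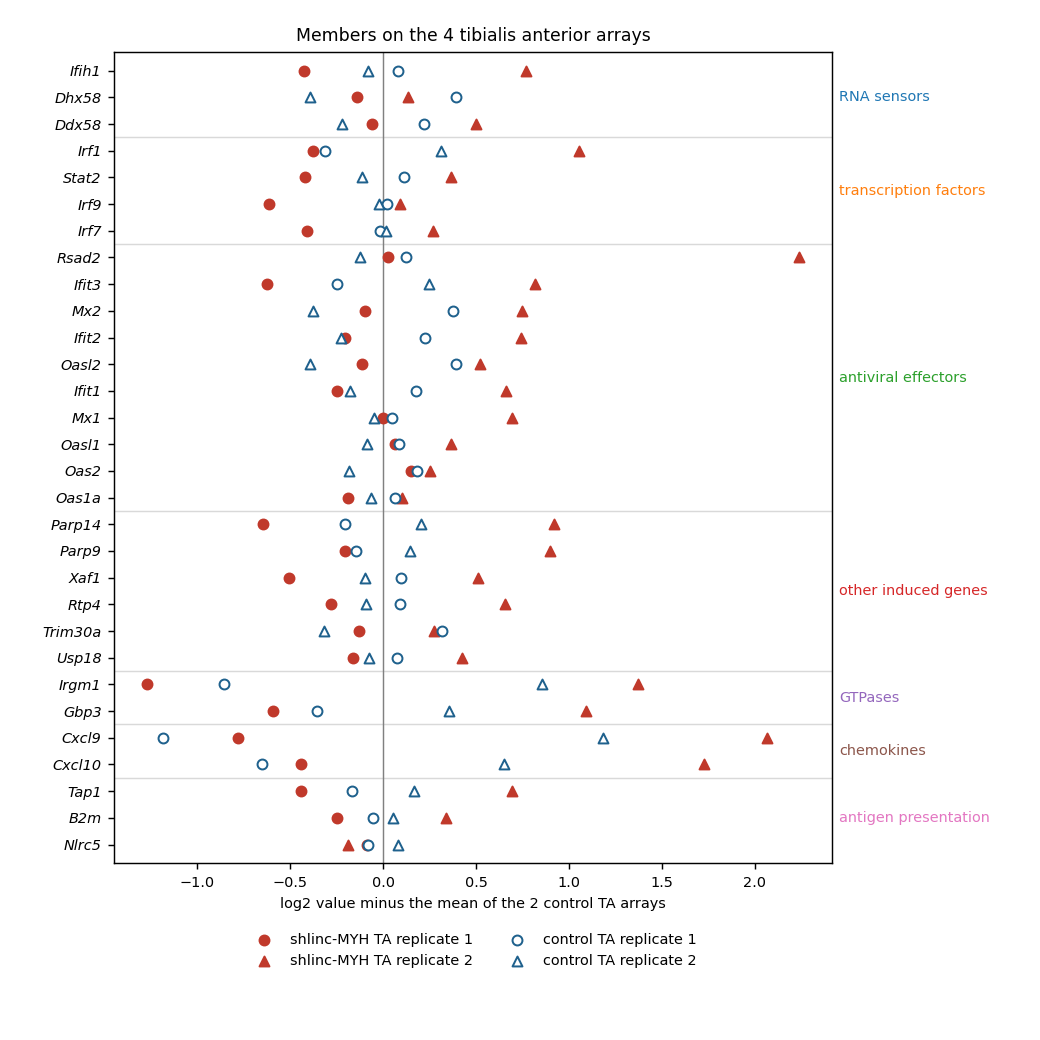
Log2 signal of each of the 30 members on each TA array minus the mean of the 2 control TA arrays, with genes grouped by role. Filled red symbols are shlinc-MYH and open blue symbols control, with circles for replicate 1 and triangles for replicate 2. The filled triangle lies farthest right for 27 members, and the open triangle lies right of the open circle in the GTPases, the chemokines and antigen presentation.

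No member was above both control arrays on both shlinc-MYH arrays. That non-overlap with shlinc-MYH higher was met by 0 of 30 members and by 16.3% of all genes, and with shlinc-MYH lower by 1 member, Nlrc5, and by 23% of all genes. Relative to the mean of the controls, the median member was at -0.25 on shlinc-MYH replicate 1 and at 0.66 on replicate 2, whereas over all genes both medians were within 0.034 of 0.

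The antiviral effectors act inside infected cells. Rsad2 (viperin, which makes a chain-terminating ribonucleotide) had signals of 7.07 and 9.29 on the shlinc-MYH arrays, against 7.17 and 6.92 on the control arrays. Only shlinc-MYH replicate 2 stood apart, and shlinc-MYH replicate 1 lay between the controls. Its log2 fold change of 1.13 ± 0.64 (SE, n = 2 each) was the one member value past 2-fold and had an adjusted p of 0.674 by limma. Ifit3, of the family of proteins that bind viral RNA, had 8.38 and 9.82 on the shlinc-MYH arrays and 8.76 and 9.25 on the control arrays, so the controls lay between the shlinc-MYH arrays. Ifit1 and Ifit2, of the same family, were higher on shlinc-MYH replicate 2 by 0.91 and by 0.95. All 10 effectors were higher on shlinc-MYH replicate 2, with a median difference of 0.77, but Ifit3 was the only one of the 10 that was higher on control replicate 2. In the other 9 the difference between the control arrays ran from -0.79 in Oasl2 to -0.10 in Mx1.

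The smallest differences between the shlinc-MYH arrays among the effectors were those of Oas2, at 0.10, Oas1a, at 0.29, and Oasl1, at 0.30. These encode, or are related to, the synthetases of 2′-5′ oligoadenylate, which activate an RNase on sensing double-stranded RNA. Mx1 and Mx2 are dynamin-like GTPases that block viral replication, and the Mx1 allele of most inbred laboratory strains makes no functional protein. Mx1 had 4.51 and 5.20 on the shlinc-MYH arrays, against 4.56 and 4.46 on the control arrays, and Mx2 differed by 0.84 between the shlinc-MYH arrays. Both were dim, below the median over all genes on each TA array. Ifit1, Ifit3, Oas1a and Trim30a have near-identical copies in the mouse genome, so the probes of these members may also read RNA of a copy.

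The sensors of viral RNA shared the direction of most effectors within each group. Ifih1 (MDA5), which senses long double-stranded RNA, had 6.68 and 7.88 on the shlinc-MYH arrays, against 7.19 and 7.02 on the control arrays. Ddx58 (RIG-I), which senses RNA ends, had 6.74 and 7.30, against 7.02 and 6.58, and Dhx58 (LGP2), their regulator, had 4.36 and 4.63, against 4.89 and 4.11. All 3 were higher on shlinc-MYH replicate 2 and lower on control replicate 2 than on the partner array. In Dhx58, which was below the median over all genes on each TA array, both shlinc-MYH arrays lay between the controls. The group of other induced genes held Usp18, the protease that removes ISG15 and limits interferon signaling, Rtp4, Xaf1, the ADP-ribosyltransferases Parp9 and Parp14, and Trim30a. All 6 were higher on shlinc-MYH replicate 2, by 0.41 in Trim30a up to 1.56 in Parp14. The smallest of these differences after Trim30a was that of Usp18, with 6.32 and 6.91 on the shlinc-MYH arrays and 6.56 and 6.41 on the control arrays. Parp9 had 6.42 and 7.52 on the shlinc-MYH arrays, against 6.48 and 6.77 on the control arrays. Parp14 had 6.74 and 8.30 on the shlinc-MYH arrays, against 7.18 and 7.58 on the control arrays, and with Parp9 it was 1 of the 2 in this group that were higher on control replicate 2.

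The transcription factors of the pathway differed between the shlinc-MYH arrays in the same direction. Irf1, a factor induced by interferon gamma, had 5.29 and 6.72 on the shlinc-MYH arrays, against 5.35 and 5.98 on the control arrays, so both replicate 2 arrays were above both replicate 1 arrays. Irf7, the amplifier of type I interferon production, had 5.99 and 6.67, against 6.38 and 6.42. The subunits of the type I transcription factor complex behaved alike: Irf9 had 5.67 and 6.38, against 6.31 and 6.26, and Stat2 had 6.09 and 6.88, against 6.62 and 6.39. In Irf7, Irf9 and Stat2 the control arrays lay between the 2 shlinc-MYH arrays.

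A second pattern belonged to the replicate 2 arrays of both TA groups. Cxcl9, the chemokine that draws activated T cells and is known as a gene induced by interferon gamma, had 6.15 and 8.99 on the shlinc-MYH arrays and 5.75 and 8.11 on the control arrays. Its difference between the 2 shlinc-MYH arrays, 2.85, was the 4th largest of the 19938 genes. Cxcl10, a second ligand of the same receptor, had 5.46 and 7.63 on the shlinc-MYH arrays and 5.26 and 6.56 on the control arrays. Irgm1, a GTPase that guards vacuole membranes, had 6.72 and 9.36 on the shlinc-MYH arrays and 7.14 and 8.85 on the control arrays. In these 3 genes both replicate 2 arrays were at least 2-fold above the replicate 1 array of their group, and they were the only members of which that held in the control group. Gbp3, a guanylate-binding protein, followed at smaller size, with 6.11 and 7.79 on the shlinc-MYH arrays and 6.35 and 7.06 on the control arrays.

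**Figure D2:**
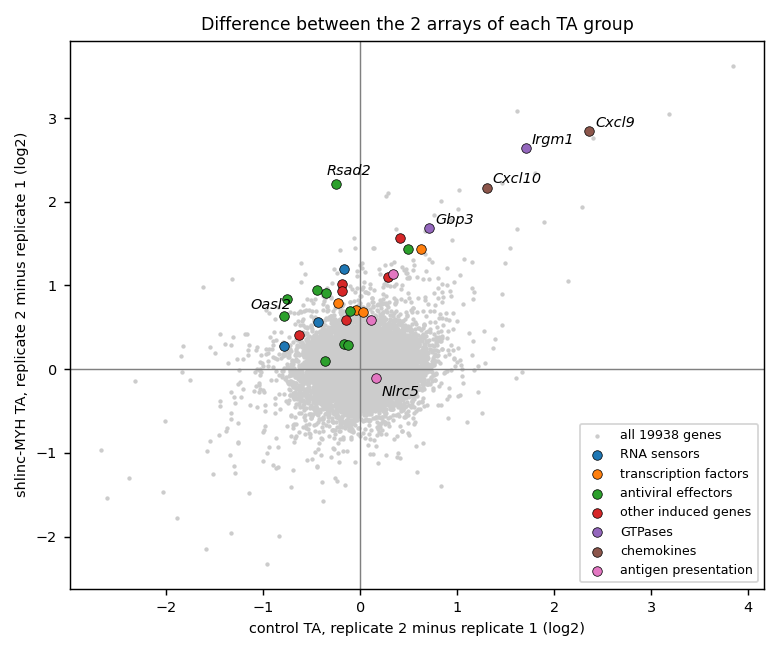
Difference between the 2 arrays of each TA group, replicate 2 minus replicate 1 on the log2 scale, for shlinc-MYH (vertical axis) and control (horizontal axis). Each point is a gene, gray for all genes and colored for the members. Cxcl9, Irgm1 and Cxcl10 lie high in both directions, and Rsad2 lies at 2.21 on the vertical axis and at -0.25 on the horizontal axis, while Nlrc5 is the one member below 0 vertically.

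The antigen presentation members split between these patterns. Tap1, the transporter that carries peptides to class I molecules, had 5.56 and 6.70 on the shlinc-MYH arrays and 5.83 and 6.17 on the control arrays. B2m, the light chain of class I, had 11.15 and 11.73 on the shlinc-MYH arrays and 11.34 and 11.45 on the control arrays. In both genes the controls lay between the shlinc-MYH arrays, with control replicate 2 the higher. Nlrc5, the transactivator of class I genes, went the other way, with 8.39 and 8.29 on the shlinc-MYH arrays and 8.40 and 8.56 on the control arrays. Its difference from control, -0.14 ± 0.13 (SE, n = 2 each), had an adjusted p of 0.814 by limma. Nlrc5 is read by 19 probe sets, of which the brightest was used, and with the mean of all of them its log2 fold change was 0.046.

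In 18 of the 30 members shlinc-MYH replicate 2 was higher and control replicate 2 lower than its partner, and in 11 both replicate 2 arrays were higher. These 11 were Irf1, Irf7, Ifit3, Parp9, Parp14, Gbp3, Irgm1, Cxcl9, Cxcl10, Tap1 and B2m. The sum of the members' linear signals was 5290 and 10200 on the shlinc-MYH arrays, against 6320 and 7000 on the control arrays. Of the 91 genes that were at least 2-fold higher on shlinc-MYH replicate 2, 12 were members and 19 were on the pathway lists described below, together 34.1%. Of the 49 such genes on control replicate 2 the share was 16.3%. The members were 30 and the pathway lists 16, 14, 18, 32, 14 and 7 of the 19938 genes. Both were chosen with earlier results of these data known, so the overlap is no independent support. Of the 25 genes with the largest such difference 6 were members, ranked from Cxcl9 (4th) over Irgm1, Rsad2, Cxcl10 and Gbp3 to Parp14 (25th).

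As a comparison of groups, no member was called in TA. With shlinc-MYH minus control fitted by limma, 0 of the 30 members passed an adjusted p of 0.05, against 3 of 19938 genes (0.015%), and 0 members had an unadjusted p under 0.05, against 8.65% of all genes. The methods' t-test likewise gave 0 members, at an unadjusted p under 0.05 or adjusted. Member log2 fold changes ran from -0.26 in Irf9 to 1.13 in Rsad2, with 24 above 0 and a median of 0.18, and -0.025 over all genes. After Rsad2 the largest were Cxcl9 and Cxcl10 at 0.64 each, with standard errors of 1.05 and 0.72, then Parp9 and Mx1 at 0.35 each. The sign depended on single arrays. Leaving out shlinc-MYH replicate 2 put the median at -0.25, and leaving out shlinc-MYH replicate 1 put it at 0.66. It was 0.15 without control replicate 1 and 0.075 without control replicate 2. The sign of 25 of the 30 members turned in at least 1 of these 4 fits, Rsad2 not among them, although its value without shlinc-MYH replicate 2 was 0.025.

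**Figure D3:**
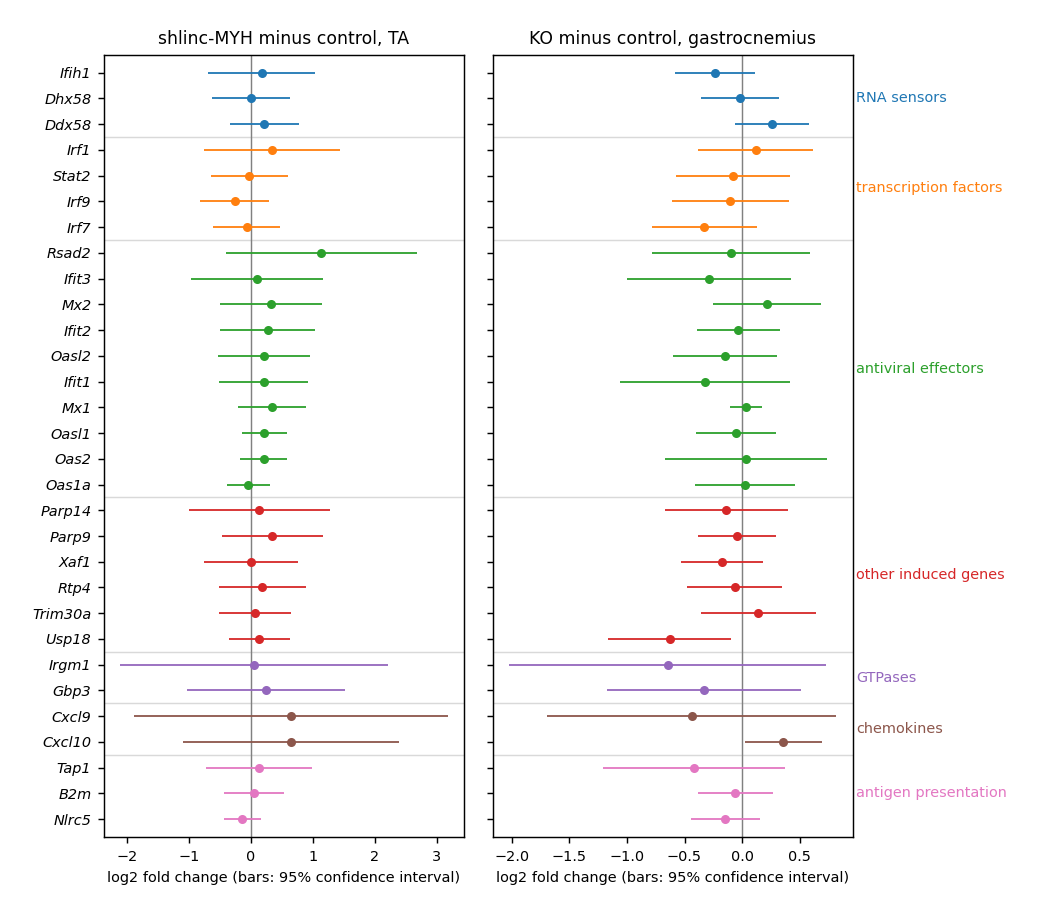
Log2 fold change of each member with its 95% confidence interval from limma, shlinc-MYH minus control in TA (left panel, n = 2 each) and KO minus control in gastrocnemius (right panel, n = 3 each). The intervals of all members include 0 in TA, and those of Usp18 and Cxcl10 exclude 0 in gastrocnemius before adjustment for the number of genes.

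In gastrocnemius, which was not electroporated, the members again shared an order of arrays within both groups. Of the 30 members, 29 were highest on replicate 3 of the 3 KO arrays, against 46.6% of all genes, and 27 were lowest on replicate 1 of the 3 control arrays, against 28.2% of all genes. Relative to the mean of their own group, the median member was at -0.19, -0.15 and 0.39 on KO replicates 1 to 3 and at -0.30, 0.17 and 0.11 on control replicates 1 to 3. Over all genes these medians were all within 0.021 of 0. The median member range was 0.66 over the 3 KO arrays and 0.53 over the 3 control arrays, against 0.20 and 0.16 over all genes.

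**Figure D4:**
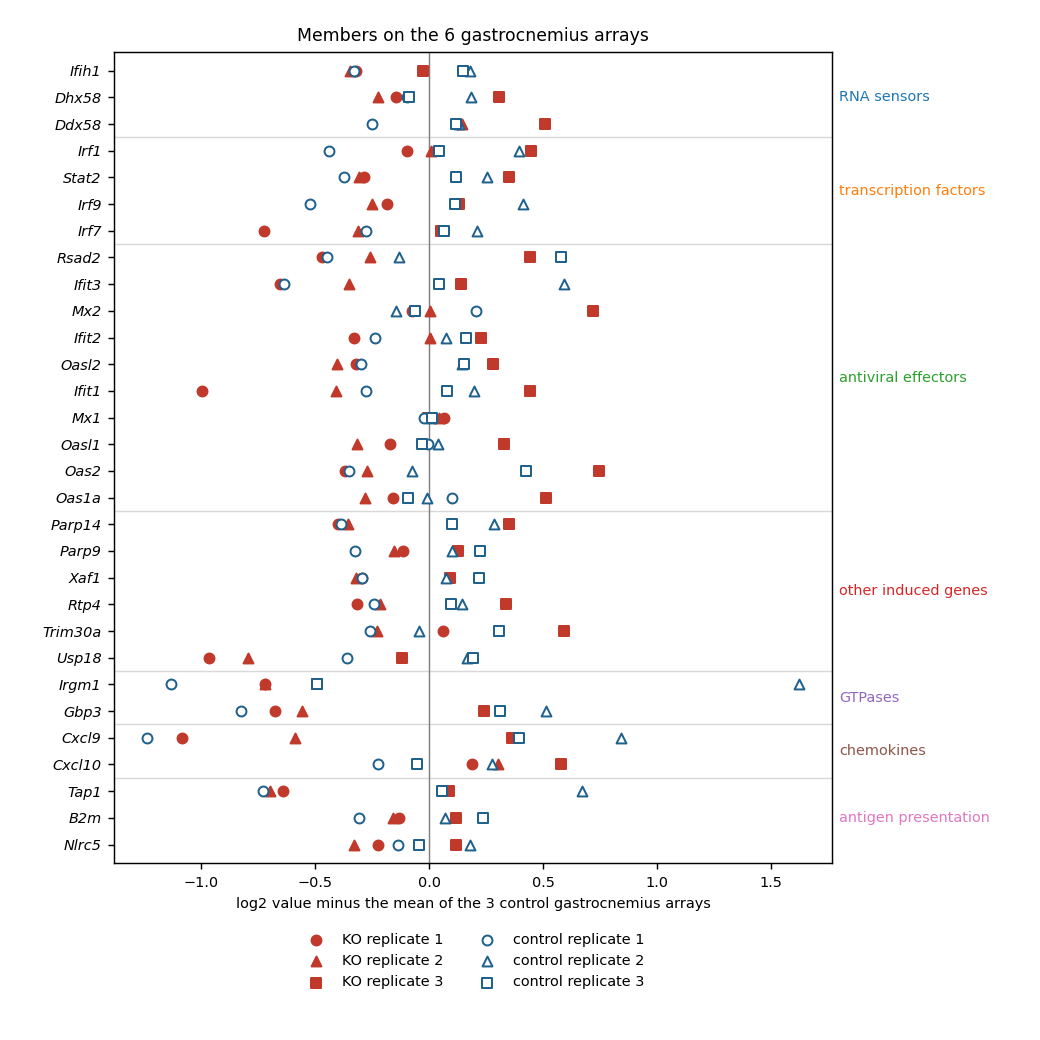
Log2 signal of each of the 30 members on each gastrocnemius array minus the mean of the 3 control arrays, grouped by role. Filled red symbols are KO and open blue symbols control, with circles, triangles and squares for replicates 1, 2 and 3. Filled squares lie right of the other filled symbols in 29 members, open circles lie left of the other open symbols in 27, and Irgm1 on control replicate 2 lies alone at the right.

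Irgm1 had the widest range of the members in gastrocnemius. It had 8.69, 8.69 and 8.91 on the KO arrays and 8.28, 11.03 and 8.91 on the control arrays, so that control replicate 2 alone was over 4-fold above each other array. Cxcl9 had 7.42, 7.92 and 8.87 on the KO arrays, against 7.27, 9.35 and 8.90 on the control arrays. In Cxcl9 KO replicate 3 was close to control replicate 3, and the 2 other KO arrays lay above control replicate 1. Tap1 likewise was highest on control replicate 2 and lowest on control replicate 1, with 7.33, 7.27 and 8.05 on the KO arrays and 7.24, 8.64 and 8.02 on the control arrays. Gbp3 had 7.27, 7.39 and 8.18 on the KO arrays, against 7.12, 8.46 and 8.26 on the control arrays. Cxcl9, Tap1 and Gbp3 thus each had 2 low arrays in KO and 1 in control, and their groups overlapped.

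The effectors had ranges from 0.088 in Mx1 to 1.44 in Ifit1, with a median of 0.83, against 0.80 over all members. Ifit1 had 6.94, 7.53 and 8.38 on the KO arrays, against 7.66, 8.13 and 8.02 on the control arrays. Its lowest and its highest signal were both on KO arrays. Rsad2, which had spanned 2.37 in TA, spanned 1.05 here, with 7.00, 7.21 and 7.91 on the KO arrays and 7.02, 7.34 and 8.05 on the control arrays. In Rsad2 the groups interleaved, and replicate 3 was the highest array of each. Mx1 was the one member not highest within KO on replicate 3, with signals between 4.86 and 4.95 and a range of 0.088 over the 6 arrays. Its signal was below the median over all genes on each array, and at so low a signal a change may not be seen. Oas1a, Oasl1 and Mx2 were the 3 not lowest within the controls on replicate 1.

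The sensors and Parp14 had ranges below the member median of 0.80. Ddx58 had 8.03, 8.04 and 8.41 on the KO arrays, against 7.65, 8.03 and 8.02 on the control arrays. Ifih1 had 7.23, 7.20 and 7.52, against 7.22, 7.73 and 7.70, and Parp14 had 7.73, 7.77 and 8.48, against 7.74, 8.41 and 8.23. Each was highest within KO on replicate 3 and lowest within the controls on replicate 1. Ddx58 had a log2 fold change of 0.26 ± 0.14 (SE, n = 3 each) with an adjusted p of 0.452 by limma.

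The transcription factors and B2m followed the same arrays. Irf1 had 7.39, 7.50 and 7.94 on the KO arrays and 7.05, 7.89 and 7.53 on the control arrays. Irf7 had 6.86, 7.27 and 7.64, against 7.31, 7.80 and 7.65. Irf9 had 7.82, 7.76 and 8.14, against 7.48, 8.42 and 8.12, and Stat2 had 7.85, 7.83 and 8.49, against 7.76, 8.39 and 8.26. In all 4 the KO and control arrays overlapped. B2m had 12.40, 12.38 and 12.65, against 12.23, 12.60 and 12.77. Nlrc5, which in TA had not followed the other members, did so here, with 9.78, 9.67 and 10.12, against 9.86, 10.18 and 9.96.

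Against control, 0 of the 30 members were called in KO gastrocnemius by limma at an adjusted p of 0.05, against 347 of 19938 genes (1.74%). An unadjusted p under 0.05 was met by 2 members, Usp18 and Cxcl10, against 14.9% of all genes, and by 0 members in the methods' t-test. Usp18 had 6.92, 7.09 and 7.77 on the KO arrays, against 7.53, 8.05 and 8.08 on the control arrays, a log2 fold change of -0.63 ± 0.23 (SE, n = 3 each) with an adjusted p of 0.253. Only KO replicate 3 reached into the control range. Without that array Usp18 was at -0.88 with a limma adjusted p of 0.045, the single call of a member in any fit. Cxcl10 had 5.77, 5.88 and 6.16 on the KO arrays, against 5.36, 5.86 and 5.53 on the control arrays, and was at 0.36 ± 0.15 (SE, n = 3 each) with an adjusted p of 0.302. Irgm1, Cxcl9 and Tap1 were at -0.65, -0.44 and -0.42, each with an adjusted p of at least 0.669. The KO arrays were all above the controls in 0 members, against 11% of all genes, and all below them in 0 members, against 9.85% of all genes.

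The median member log2 fold change in gastrocnemius was -0.088, and 0.0080 over all genes, with 22 of 30 members below 0. It was -0.29 without KO replicate 3 and 0.0041 without control replicate 2, and 18 of the 30 members changed sign in at least 1 of the 6 fits that left out an array. The contrast of the 2 comparisons, shlinc-MYH minus control in TA less KO minus control in gastrocnemius, was fitted over all 10 arrays. It called 0 members, against 0.145% of all genes, and gave 0 members an unadjusted p under 0.05, against 12.3% of all genes. Its member median was 0.27 and its lowest member adjusted p was 0.423, in Usp18. The 2 comparisons share no array.

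The rest of the pathway shows which other genes shared that order. Of 16 interferon genes measured, 6 were higher on shlinc-MYH replicate 2, with a median difference of -0.062, and 5 were higher on control replicate 2. Interferon gamma, Ifng, had 4.29 and 4.69 on the shlinc-MYH arrays and 4.01 and 4.51 on the control arrays, below the median over all genes on each array. The 16 interferon genes had a summed linear signal of 539 and 549 on the shlinc-MYH arrays and 591 and 570 on the control arrays. At so low a signal a change in these genes may not be seen. The receptors and their kinases had a median difference of 0.013 between the shlinc-MYH arrays, with 7 of 14 higher. The sensing genes outside the members had a median of 0.095, with 12 of 18 higher, led by the nucleic acid sensor Zbp1, which had 6.64 and 7.88 on the shlinc-MYH arrays, against 6.79 on both control arrays. Limma called 0 genes of these 3 lists in TA, against 0.015% of all genes. There 2 of 16, 1 of 14 and 1 of 18 had an unadjusted p under 0.05, against 8.65% of all genes. In gastrocnemius 0 of 16, 7 of 14 and 5 of 18 had one, against 14.9% of all genes. Limma called 1 gene of the 3 lists there, against 1.74% of all genes. It was the receptor kinase Jak2, at a log2 fold change of -0.56 with an adjusted p of 0.036.

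Other interferon-induced genes shared the members' order of arrays in part. On shlinc-MYH replicate 2, 30 of 32 were higher, with a median difference of 0.60, and on control replicate 2, 12 of 32 were higher, with a median of -0.10. Of the 4 TA arrays, shlinc-MYH replicate 2 was highest in 22 of 32, against 27 of 30 members, and control replicate 1 in 8. In gastrocnemius 29 of 32 were highest within KO on replicate 3, against 46.6% of all genes. Lowest within the controls on replicate 1 were 20 of 32, against 27 of 30 members and 28.2% of all genes. Iigp1, an immunity-related GTPase, had 7.20 and 10.25 on the shlinc-MYH arrays and 7.60 and 10.79 on the control arrays, with both replicate 2 arrays above both replicate 1 arrays as in Irgm1, but with control replicate 2 the highest. In gastrocnemius Iigp1 had 6.62, 7.13 and 8.40 on the KO arrays and 6.40, 11.23 and 8.77 on the control arrays, with control replicate 2 highest and control replicate 1 lowest as in Irgm1. Of 14 further class I genes 13 were higher on shlinc-MYH replicate 2, with a median of 0.95, and 11 on control replicate 2, with a median of 0.38. Psmb9, a subunit of the immunoproteasome that cuts peptides for class I, had 6.86 and 8.995 on the shlinc-MYH arrays and 7.49 and 8.51 on the control arrays. All 7 class II genes were higher on shlinc-MYH replicate 2 (median 0.96) and 6 of 7 on control replicate 2 (median 0.42). In these 3 lists limma called 0 genes in either comparison, against 0.015% of all genes in TA and 1.74% in gastrocnemius. An unadjusted p under 0.05 was met in TA by 0 genes, against 8.65% of all genes. In gastrocnemius it was met by 4 of 32, 1 of 14 and 5 of 7, against 14.9% of all genes. Only the class II share was above that of all genes. In 5 of the 7 class II genes all KO arrays were above all controls, against 11% of all genes. KO replicate 1 was the highest of the 6 arrays in 6 of 7, against 18.1% of all genes. Of the 12 macrophage markers, 9 had all KO arrays above all controls and 10 were highest on KO replicate 1, and their part in the class II values was not tested.

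**Figure D5:**
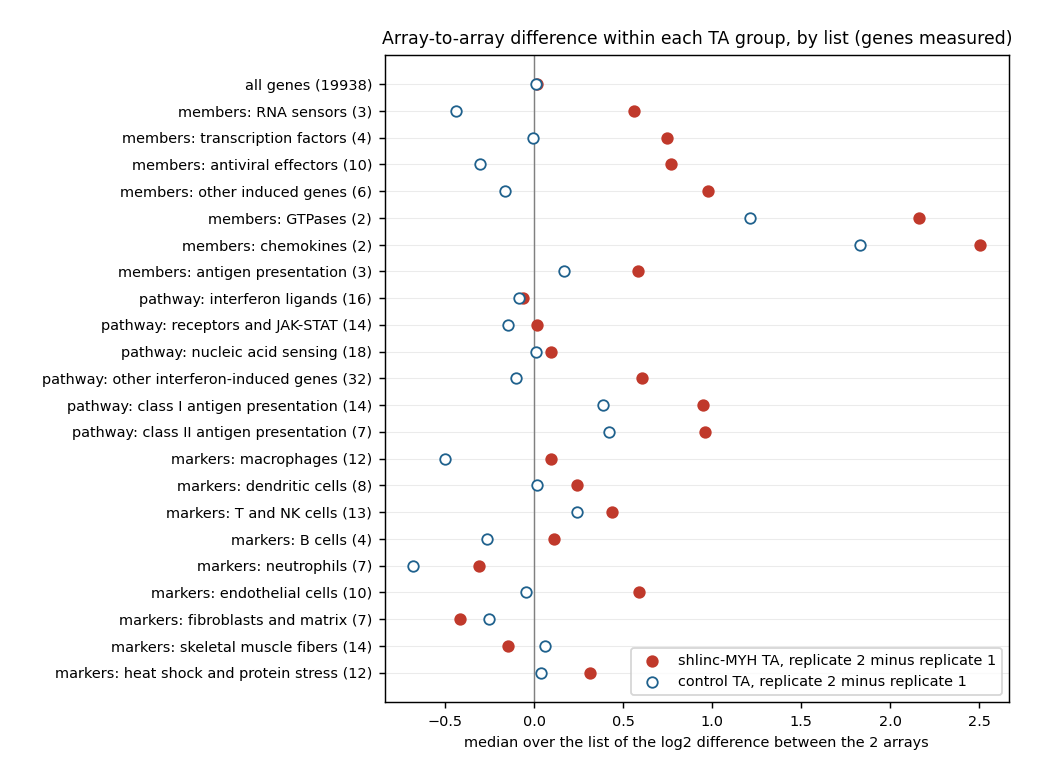
Median over each list of the log2 difference between the 2 arrays of a TA group, replicate 2 minus replicate 1, filled red for shlinc-MYH and open blue for control, with the number of genes measured in brackets. The members' groups, the other interferon-induced genes and class I and class II lie right of 0.5 for shlinc-MYH, and so do the endothelial markers, at 0.59. The interferon genes, receptors and sensing genes lie near 0.

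Markers of other cell types differed between these arrays too, and their part in the member values was not tested. The markers of T and natural killer cells were higher on shlinc-MYH replicate 2 in 12 of 13 genes, with a median of 0.44, and on control replicate 2 in 10 of 13, with a median of 0.24. Their summed linear signal was 322 and 483 on the shlinc-MYH arrays, against 352 and 417 on the control arrays, the array order of Irf1, Irgm1 and Tap1. The granule protease Gzmb had 4.40 and 5.97 on the shlinc-MYH arrays, against 4.73 and 4.66 on the control arrays. Macrophage markers had summed signals of 1580 and 1590 on the shlinc-MYH arrays, against 2070 and 1140 on the control arrays. These sums differed between the control arrays and hardly between the shlinc-MYH arrays, but in a sum opposite changes can cancel. By gene, 8 of the 12 were higher on shlinc-MYH replicate 2, against 52.9% of all genes, with a median difference of 0.091. At least 2-fold lower on that array was 1 of the 12, against 0.211% of all genes. All 12 were lower on control replicate 2, with a median difference of -0.50. Between those 2 arrays 18 members went in that direction and 12, Cxcl9, Cxcl10 and Irgm1 among them, in the other. Endothelial markers had sums of 749 and 1180, against 1490 and 1480, with 9 of 10 higher on shlinc-MYH replicate 2 than on replicate 1. The lowest array was shlinc-MYH replicate 1 in 9 of 10, as in 17 members. The highest was shlinc-MYH replicate 2 in 0 of 10, against 27 of 30 members. All 10 had a log2 fold change below 0, and in 8 the shlinc-MYH arrays were all below the controls, against 23% of all genes. In that list 6 of 10 genes had an unadjusted p under 0.05, against 8.65% of all genes, and 0 were called by limma.

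Neutrophil markers were lower on both replicate 2 arrays in 7 of 7 genes. Fibroblast markers were lower on shlinc-MYH replicate 2 in 6 of 7 and on control replicate 2 in 7 of 7. Dendritic cell markers were higher on shlinc-MYH replicate 2 in 7 of 8 and B cell markers in 3 of 4, with medians of 0.24 and 0.11. Heat shock genes were higher on shlinc-MYH replicate 2 in 9 of 12, with a median of 0.31, and their summed signals were 11800 and 13700 on the shlinc-MYH arrays, against 9050 and 9640 on the control arrays. Of the 12, 7 had an unadjusted p under 0.05, against 8.65% of all genes, and 0 were called by limma. Muscle fiber markers were higher on shlinc-MYH replicate 2 in 3 of 14, with a median of -0.15. For KO against control gastrocnemius 4 of these 14 had an unadjusted p under 0.05, against 14.9% of all genes, and 0 were called by limma. In gastrocnemius the array order of the macrophage markers was another one than that of the members. Their summed signals were 8720, 5920 and 5790 on the KO arrays and 4680, 3950 and 4660 on the control arrays. KO replicate 1 had the highest sum, an array on which 1 of 30 members was highest, against 18.1% of all genes. Of the 12 macrophage markers 9 had an unadjusted p under 0.05 for KO against control, against 14.9% of all genes. Limma called 1, Mrc1, against 1.74% of all genes. The T and natural killer cell sums were 597, 569 and 684 on the KO arrays and 591, 656 and 622 on the control arrays. By gene, 10 of 13 were highest within KO on replicate 3, against 29 of 30 members and 46.6% of all genes. Only 6 of 13 were lowest within the controls on replicate 1, against 27 of 30 members and 28.2% of all genes.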

How the data were processed

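The values that the authors deposited are on a log2 scale. They come from RMA, which subtracts background, equalizes the distributions of arrays and summarizes probes. The methods name R for this step and the submitters' processing notes list RMA and Partek, both without versions. The labels give 100 ng of RNA and an Affymetrix kit, the methods another amount and a Nugen kit. RMA hides a shift of all genes together, and each tissue has its own distribution.

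Of 35556 probe sets, 21789 carried 1 gene symbol in the platform annotation, 1621 several and 12146 none, and only the first kind was named. The gene targeted in the conditional knockout is not reported here. RefSeq (GRCm38.p6) matched 21698 and changed 0 symbols. For 999 genes with more than 1 probe set, 2 of them members, the one with the highest mean over the 10 arrays was used. Arrays have no read depth, and their number limits the precision.

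Group differences were tested with limma 3.58.1 (lmFit and eBayes, R 4.3.3), separately for TA and gastrocnemius, with Benjamini-Hochberg adjustment over all 19938 genes, after a test on simulated data. A confidence interval is at 95%. The contrast of both comparisons was fitted over all 10 arrays. Summaries used Python 3.11.15. The alternatives were quantile normalization, centring of arrays, the mean of all probe sets, a filter on dim genes, the replicate number as a block, 1 fit for all arrays, an intensity trend, array weights, the methods' t-test, and leaving out each array.

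The members and lists were chosen with earlier results of these data known. All 34 members are named. Per-array values are given for the 8 with the largest range in TA, the 4 with the largest range in gastrocnemius, the 4 largest fold changes in each comparison, any called, and all transcription factors and antigen presentation genes. Of other lists up to 3 genes are named, by moderated t or range in TA. Values of Acta1, Ifng and further members were added after their values were seen.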

Additional observations from a re-analysis of the deposited data

How the results depend on the processing

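Counts of called members were 0 under all alternatives run, for both comparisons and for their contrast, except in gastrocnemius without KO replicate 3. Without 1 array at a time the count there ran from 0 to 1 (Usp18). The median member log2 fold change in TA ran from -0.25 to 0.66 without 1 array and from 0.15 to 0.21 under the other settings, and in gastrocnemius from -0.29 to 0.0041 without 1 array. The 4 medians of differences and ranges within groups stayed within 1.5 times under quantile normalization, centring, the mean of probe sets and the filter on dim genes. A TA fit without 1 array sets 1 array against 2, and the lone array is assumed to vary like the other groups. The number of arrays limits the precision.

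The replicate numbers were not taken to pair the arrays: over all genes the deviations of same-numbered arrays correlated at 0.19 in TA, with only 2 pairs, and at 0.22, -0.14 and 0.084 for replicates 1, 2 and 3 in gastrocnemius. The methods put the control vector in the opposite leg, but the labels tie no number to a mouse. With the replicate number as a block, 0 members were called in either comparison or their contrast, the medians stayed at 0.18 and -0.088, and the genes called in all numbered 5 in TA and 186 in gastrocnemius, against 3 and 347 without it. At an unadjusted p under 0.05 the block fit had Cxcl9 (0.64 ± 0.16, SE, limma adjusted p = 0.383) and Cxcl10 (0.64 ± 0.22, limma adjusted p = 0.457) in TA, Cxcl10, Ddx58, Irf7 and Usp18 in gastrocnemius, and Cxcl9 and Usp18 in the contrast, where the fits without it had 0, 2 and 0 members. In TA, 10 genes were called after centring, 131 with all 10 arrays in 1 fit and 0 without any 1 array. In gastrocnemius, 543 were called with an intensity trend, 989 with array weights, 4 by the methods' t-test, which called 0 in TA, and between 51 and 560 without 1 array. For the contrast of both, 29 were called, 12 without dim genes and between 6 and 100 without 1 array.

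Members whose log2 fold change turned sign without 1 array ranged, in TA, in B2m from -0.25 to 0.34, Cxcl10 from -0.44 to 1.73, Cxcl9 from -0.78 to 2.07, Ddx58 from -0.061 to 0.50, Dhx58 from -0.40 to 0.39, Gbp3 from -0.59 to 1.09, Ifih1 from -0.42 to 0.77, Ifit1 from -0.25 to 0.66, Ifit2 from -0.20 to 0.74, Ifit3 from -0.62 to 0.82, Irf1 from -0.37 to 1.06, Irf7 from -0.41 to 0.27, Irf9 from -0.62 to 0.091, Irgm1 from -1.27 to 1.37, Mx2 from -0.10 to 0.75, Oas1a from -0.19 to 0.10, Oasl2 from -0.19 to 0.60, Parp14 from -0.64 to 0.92, Parp9 from -0.20 to 0.90, Rtp4 from -0.28 to 0.66, Stat2 from -0.42 to 0.37, Tap1 from -0.44 to 0.70, Trim30a from -0.24 to 0.39, Usp18 from -0.16 to 0.42 and Xaf1 from -0.50 to 0.51. In gastrocnemius they ranged in B2m from -0.21 to 0.060, Dhx58 from -0.18 to 0.081, Ifit1 from -0.70 to 0.016, Ifit2 from -0.16 to 0.12, Ifit3 from -0.61 to 0.0088, Irf1 from -0.10 to 0.32, Irf9 from -0.36 to 0.10, Irgm1 from -1.21 to 0.17, Mx2 from -0.035 to 0.36, Oas1a from -0.22 to 0.18, Oas2 from -0.32 to 0.25, Oasl1 from -0.24 to 0.079, Parp14 from -0.38 to 0.0074, Parp9 from -0.21 to 0.066, Rsad2 from -0.36 to 0.19, Rtp4 from -0.27 to 0.061, Stat2 from -0.30 to 0.047 and Trim30a from -0.082 to 0.33. Under the other settings the sign turned for 4 members in TA and 5 in gastrocnemius. In TA Dhx58 was at 0.039 by quantile normalization and 0.028 after centring, Stat2 at 0.0046 after centring, Xaf1 at -0.018 by quantile normalization and Nlrc5 at 0.046 with the mean of probe sets. In gastrocnemius after centring Mx1 was at -0.012, Oas1a at -0.022 and Oas2 at -0.012, and with array weights Mx2 was at -0.017, Oas1a at -0.19, Oas2 at -0.079 and Parp9 at 0.00097. The cause was not tested.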
